A study of Homo sapiens with 7 samples.

Results

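The cytosolic ribosomal protein genes are described here in 2 human B cell lines before and after inhibition of Bruton's tyrosine kinase (BTK), the kinase that passes the B cell receptor signal on to calcium and NF-kB pathways. Members were chosen by name alone: genes called RPL or RPS plus a number, with A, X or L after it allowed, and RPLP0, RPLP1, RPLP2 and RPSA. The rule found 82 of the 22257 genes in the deposited tables, 49 of the large (60S) and 33 of the small (40S) subunit, and each is read from its transcript with the highest mean count. Genes with other names for ribosomal proteins (such as FAU and GNB2L1) stand outside the rule and are given apart.

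The study sequenced total RNA of RL cells given a BTK inhibitor for 6 h (n = 2) and RL cells without an agent (n = 2), and of JeKo-1 cells given the inhibitor for 6 h (n = 2) and JeKo-1 cells without an agent (n = 1). The series title names the inhibitor ibrutinib. No dose and no vehicle are given, and the labels do not say whether replicate libraries stem from separate cultures. P-values thus reflect the spread between libraries alone, and that spread may be technical. In JeKo-1 it is in effect a spread pooled over genes and not each gene's own. The submitters label both lines as mantle cell lymphoma, a mature B cell tumour. CCND1 and SOX11, the usual marker genes of that disease, lay at 550.2 to 677 and 149 to 174 CPM (scaled counts, explained further on) in the RL libraries and at 380.4 to 430.5 and 34.4 to 39.9 CPM in the JeKo-1 libraries. All 6 B cell markers examined were above 1 CPM in every library.

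Each ribosome carries 1 copy of almost every ribosomal protein, so the genes are expressed at high and roughly matched levels in growing cells. Their mRNAs begin with a run of pyrimidines called a 5′ terminal oligopyrimidine (TOP) tract, through which mTOR and LARP1 set how much of the mRNA is translated, while MYC is a known activator of their transcription. In lymphocytes, receptor signalling raises ribosome production before cell division.

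Promoter windows of 300 bases were available from RefSeq (GRCh38.p14) for 64 of the 82 genes, 79 windows in all. A pyrimidine run of at least 5 bases that starts with C within 10 bases of the start site, the letters of a TOP tract, was found in 54.4% of these windows and in 21.1% of all 35116 windows of the table. The median longest run was 10 bases in the members and 4 in all windows. The E-box CACGTG, searched on the 300 bases (it reads the same on both strands), was in 5.06% of member windows and 7.26% of all. The lines below show 15 bases before and 15 bases from the start of genes that the results turn on, 5′ to 3′ on the gene's strand, with the longest run of C or T near the start in capitals: RPL13A, RPLP1 and RPS14 as genes that rose in one or both lines, RPL28 and RPS16 as members not called in JeKo-1, RPL36A as a member that fell in RL, and RPS27L as the paralog with almost no run. They lie at chr19:49487593-49487622 (plus strand) for RPL13A, chr15:69452803-69452832 (plus) for RPLP1, chr5:150449725-150449754 (minus) for RPS14, chr19:55385917-55385946 (plus) for RPL28, chr19:39435935-39435964 (minus) for RPS16, chrX:101390996-101391025 (plus) for RPL36A and chr15:63157463-63157492 (minus) for RPS27L.
RPL13A: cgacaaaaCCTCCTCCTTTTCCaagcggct
RPLP1: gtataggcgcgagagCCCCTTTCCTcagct
RPS14: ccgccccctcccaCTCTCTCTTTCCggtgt
RPL28: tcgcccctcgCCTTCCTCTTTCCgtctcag
RPS16: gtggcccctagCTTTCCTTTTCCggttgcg
RPL36A: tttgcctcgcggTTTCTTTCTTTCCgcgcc
RPS27L: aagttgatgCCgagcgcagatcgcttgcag
RPL13A, with the largest rise in JeKo-1, has a run of 14 bases, and RPL28, not called there, one of 13. RPL3, whose window is not shown, has a run of 5 bases and rose in both lines (log2 fold change 0.34 in JeKo-1 and 0.15 in RL). Any link between run length and change was not tested. RPL36A, whose longest run begins with T, and RPS16 have runs of 13 and 12 bases, and the run of RPS27L is 2 bases long.

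The libraries held 19.1 to 33.5 M counts in RL and 23.3 to 24.4 M in JeKo-1 when each gene was counted by 1 transcript. The ribosomal protein genes took 4.75% and 4.62% of these counts in treated RL cells, against 4.25% and 4.49% in untreated RL cells. In JeKo-1 they took 6.07% and 5.94% in treated cells, against 5.24% in the untreated library. The share was thus higher in each treated library than in every control of its line, and higher in every JeKo-1 library than in any RL library. A level is given as CPM, the gene's counts per M counts over all transcripts, with TMM scaling, which evens out library composition, over the 7 libraries. In bulk RNA a share can change through the other RNAs as well, and fewer cells of a type and less RNA per cell cannot be told apart.

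Of the 82 members, 80 passed the count filter. The others are RPL3L, the paralog known from heart and skeletal muscle, with 0 to 5 counts in a library, and RPL10L, a paralog known from testis, with 1 count in the first RL control and 0 elsewhere. A count of 0 allows a level of up to 0.0491 to 0.0866 CPM, depending on the library (3 counts, counting error only). Processed pseudogenes, intronless copies that can share reads, are annotated for all but 6 members and number up to 84 for a gene. How reads with several matches were assigned is not given in the sources used here, so the level of a single member is less certain than its change.

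In JeKo-1, BTK inhibition went with a small rise across nearly the whole set. Of the 80 tested members, 68 rose and 0 fell (edgeR quasi-likelihood test, adjusted p under 0.05), against 13.4% of all tested genes higher and 14.9% lower. Among genes averaging at least 100 CPM, 60 of 65 members rose, against 34.3% of all such genes. The median log2 fold change was 0.26 over the members and -0.01 over all tested genes. For genes averaging at least 100 CPM it was 0.27 in the members and 0.08 in all such genes. No member reached a 1.5-fold change. No member fell at an unadjusted p under 0.05, and DESeq2 called 52 higher and 0 lower, limma-voom 70 higher and 0 lower. Both treated libraries were above the control for 78 members, against 41.1% of all tested genes. All these comparisons rest on 1 untreated JeKo-1 library, so a departure of that library and the treatment cannot be told apart. The members moved together between the treated replicates, with a median log2 difference of 0.06, first minus second. Calls of single members in JeKo-1 are thus not independent results.

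**Figure D1:**
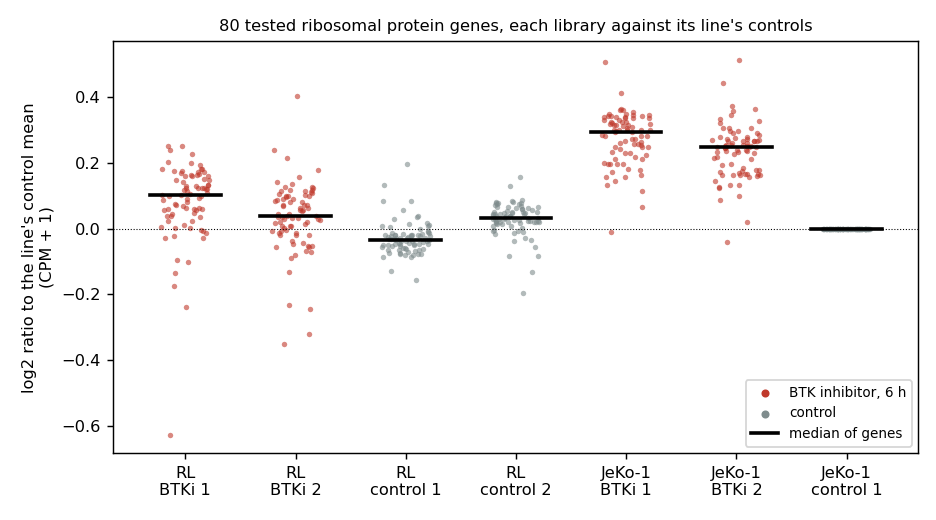
Log2 ratio of each library to the control mean of its line (CPM + 1) for the 80 tested ribosomal protein genes; each point is a gene, black bars are medians, red is BTK inhibitor for 6 h and grey is control. The medians are 0.10 and 0.04 in treated RL, -0.03 and 0.03 in the RL controls, and 0.29 and 0.25 in treated JeKo-1, whose single control is 0 by construction.

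The rise in JeKo-1 took in both subunits. With 68 of 80 members called, against 13.4% of all tested genes, high counts in any group of members follow from the set as a whole. Of 2 tested paralogs that are tissue-restricted or linked to stress, 1 rose. In the 60S subunit 41 of 47 tested members rose, with a median log2 fold change of 0.26, and in the 40S subunit 27 of 33, with a median of 0.27. RPL13A, a 60S protein also known from translational silencing after interferon, had the largest change. It lay at 329 and 315 CPM in treated JeKo-1, against 231 CPM in the control (log2 fold change 0.47, SE 0.066, adjusted p = 3.29e-11). That is 1.38-fold, and both treated libraries were far above the control on the scale of the gap between them. RPLP1, an acidic protein of the stalk that recruits elongation factors, lay at 129 and 154 CPM in treated cells, against 108 CPM in the control (log2 fold change 0.39, SE 0.067, adjusted p = 1.07e-07). Its treated libraries differed by more than those of RPL13A, and without the second of them its log2 fold change was 0.27. The SE of RPLP1 was still nearly that of RPL13A. The SEs and p-values in JeKo-1 thus do not carry a gene's own replicate gap and can overstate certainty.

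Stalk partners of RPLP1 rose as well. RPLP0 lay at 1081 and 1067 CPM in treated JeKo-1, against 889.8 CPM (log2 fold change 0.26, adjusted p = 0.00134), and RPLP2 at 545 and 582 CPM, against 476 CPM (0.24, adjusted p = 0.00266). RPL5 and RPL11, which carry 5S rRNA into the 60S subunit and bind MDM2 when free, both rose by 0.28 on the log2 scale (adjusted p = 0.000347 and 0.00097). RPL5 lay at 683 and 647 CPM in treated cells, against 545 CPM, and RPL11 at 1537 and 1473 CPM, against 1234 CPM. All 8 members listed for the peptide tunnel or its exit rose (RPL4, RPL17, RPL19, RPL23A, RPL26, RPL31, RPL35 and RPL39), with a median of 0.28. Of 15 members mutated in Diamond-Blackfan anaemia, an inherited failure of red cell production, 12 rose, against 68 of 80 in the whole set.

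Small-subunit members moved by like amounts. RPS3A lay at 688 and 621 CPM in treated JeKo-1, against 517 CPM (log2 fold change 0.33, adjusted p = 1.23e-05). RPS6, the substrate of S6 kinase, lay at 1493 and 1400.3 CPM, against 1179 CPM (0.29, adjusted p = 0.00062). RPS4X, the X-linked member with the most counts of the set, lay at 2054 and 1985 CPM, against 1669 CPM (0.27, adjusted p = 0.00242). RPS27A, made as a fusion with ubiquitin, rose by 0.23 (adjusted p = 0.00476, and 0.127 without the first treated library), and RPSA, also known as a laminin receptor, by 0.25 (adjusted p = 0.00109). Both treated libraries were above the control for each of these genes.

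The 12 members not called in JeKo-1 included RPL7A, RPL8, RPL21, RPL28, RPL36A, RPL39L, RPS2, RPS16, RPS26 and RPS28. The log2 fold changes of all 12 were positive too. RPS16 had the lowest, at 207 and 177 CPM in treated cells, against 182 CPM (0.07, SE 0.065), and RPL28 lay at 33.9 and 38.3 CPM, against 34.1 CPM (0.08, SE 0.080). The treated libraries of both genes lay on either side of the control. Of the 12, 7 averaged under 100 CPM, as did 15 of all 80 tested members. RPS2 (586 and 575 CPM in treated cells, against 541 CPM) and RPL8 (481 and 515 CPM, against 459.6 CPM) were exceptions with deep counts and log2 fold changes of 0.09 and 0.11, each with an SE of 0.067. RPL39L, a paralog known from testis, had 16.3 and 15.6 CPM, against 13.7 CPM, and did not pass the test. RPS27L, a paralog known as a p53 target, rose by 0.28 (adjusted p = 0.00753), with 31.1 and 30.1 CPM in treated cells, against 25.1 CPM; with either treated library left out it was not called (adjusted p up to 0.302).

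**Figure D2:**
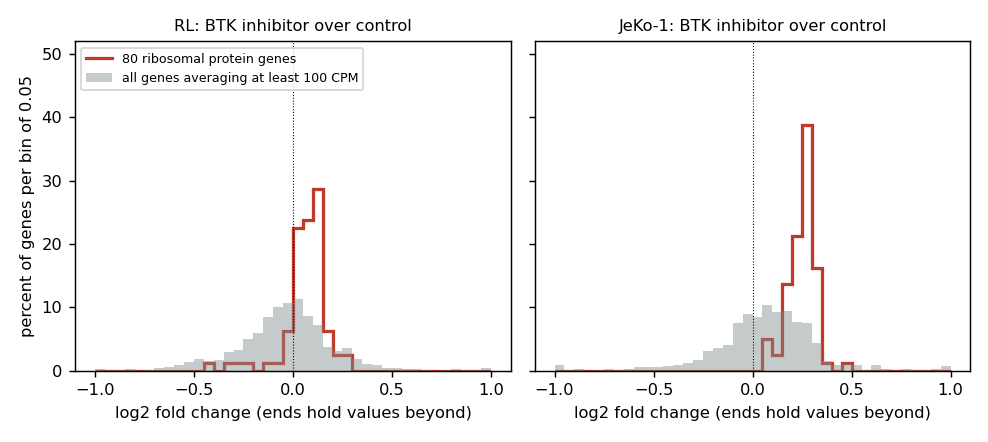
Percent of genes per bin of log2 fold change (BTK inhibitor over control) in RL and JeKo-1, for the 80 tested ribosomal protein genes (red outline) and all genes averaging at least 100 CPM (grey). The members have medians of 0.08 in RL and 0.26 in JeKo-1, and the other genes spread over both sides of 0.

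Change was set against level and length. Across the 80 members, which share libraries, the log2 fold change in JeKo-1 and log2 mean CPM had a Pearson r of 0.39, and across 76 members with a coding length r with that length was 0.10. Short coding sequences moved upward among other genes as well. Of genes outside the set that averaged at least 100 CPM, 45.1% of those with under 600 coding bases rose in JeKo-1 (median log2 fold change 0.14), against 27.6% of those with 600 to 1000 (0.06) and 28.9% of longer ones (0.05). The members rose in 40 of 42 cases under 600 bases, 15 of 17 from 600 to 1000 and 2 of 2 above, with medians of 0.27, 0.27 and 0.32. In each class the median of the members was above that of the other genes, and the part of length in the result was not tested.

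RL showed a smaller and more mixed response. Of the 80 tested members, 8 rose and 2 fell (edgeR quasi-likelihood test, adjusted p under 0.05), against 15.1% of all tested genes higher and 15.3% lower, a smaller share than the genome in both directions. The median log2 fold change was 0.08, against 0.01 over all tested genes, and 69 of 80 estimates were positive. Members also moved together between replicates. Their median log2 difference, first minus second replicate, was 0.06 in treated RL and -0.07 in RL controls. That is near the size of the RL median, so the positive estimates are not independent results. Both treated libraries lay above both controls for 35 members, against 32.2% of all tested genes, and below both for 5, against 32.9%. Of members averaging at least 100 CPM with under 600 coding bases, 4 of 42 rose, against 33.5% of such genes outside the set. The median ratio to the control mean was 0.10 in the treated library with 19.1 M counts and 0.04 in the one with 33.5 M; the part of depth was not tested.

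RPL13A had the smallest p-value in RL as in JeKo-1. It lay at 274 and 272 CPM in treated RL, against 225 and 236 CPM in the controls (log2 fold change 0.25, SE 0.047, adjusted p = 0.00164), with no overlap, and it was called whichever library was left out. RPL18, a 60S protein, lay at 487 and 498 CPM in treated cells, against 432 and 426 CPM (0.21, adjusted p = 0.00522). RPS15, of the 40S head, lay at 287 and 275 CPM, against 231 and 256 CPM (0.21, adjusted p = 0.0115). RPS14, whose loss marks the 5q deletion syndrome, lay at 447 and 445 CPM, against 397 and 402 CPM (0.17, adjusted p = 0.0144). In all of these the groups did not overlap. RPSA, RPL3 and RPL13 rose by 0.16, 0.15 and 0.14, with adjusted p-values of 0.0339, 0.0441 and 0.0403. All 8 called members rose in JeKo-1 too, where RPL18 and RPS15 were not called without the second treated library (adjusted p = 0.0862 and 0.127).

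Most RL calls depended on single libraries. The members called numbered 7 without the first treated library, 19 without the second, 6 without the first control and 6 without the second. RPL18 and RPS14 were not called without either control (adjusted p up to 0.0712 and 0.178), nor RPS15 without the first control (adjusted p = 0.222). RPSA, RPL3 and RPL13 stayed called in 1 of the 4 fits each, with adjusted p up to 0.408, 0.469 and 0.383 in the others. DESeq2 called 5 members higher and 0 lower, and limma-voom 15 higher and 2 lower.

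The members that fell in RL were RPS16 and RPL36A. RPS16, of the 40S head, lay at 125 and 163 CPM in treated RL, against 223 and 169 CPM in the controls (log2 fold change -0.43, SE 0.12, adjusted p = 0.0212). The groups did not overlap, but the treated library at 163 CPM was close to the control at 169 CPM, and without the first treated library the log2 fold change was -0.26 (adjusted p = 0.0507). RPL36A, of the 60S subunit, lay at 8.66 and 7.93 CPM in treated cells, against 9.81 and 11.0 CPM (-0.33, SE 0.095, adjusted p = 0.0202). This gene was among the lowest of the set per kilobase and was not called without the second treated library or the second control (adjusted p = 0.123 and 0.167). DESeq2 called neither gene.

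The groups in which most or all members rose in JeKo-1 held no called member in RL. None of the 3 stalk genes, the 5S pair, the 8 tunnel genes or the 15 Diamond-Blackfan genes passed the edgeR test. Over the whole set 8 of 80 members rose and 2 fell, and 15.1% of all tested genes rose and 15.3% fell. At an unadjusted p under 0.05 there were 2 stalk genes higher, 0 of the 5S pair, 1 tunnel gene higher and 1 lower, and 3 Diamond-Blackfan genes higher. By limma-voom 1 stalk and 1 Diamond-Blackfan gene were called higher, and by DESeq2 none. RPLP1 lay at 179.6 and 177 CPM in treated RL, against 176 and 168 CPM (0.06, SE 0.047). RPS4X lay at 1113 and 1064 CPM, against 954 and 1019 CPM (0.15, SE 0.053, adjusted p = 0.0521), just outside the threshold. RPS6 lay at 606 and 592 CPM, against 555 and 573 CPM (0.09, SE 0.047), and RPS27A at 592 and 560.0 CPM, against 572 and 593 CPM (-0.01, SE 0.049).

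**Figure D3:**
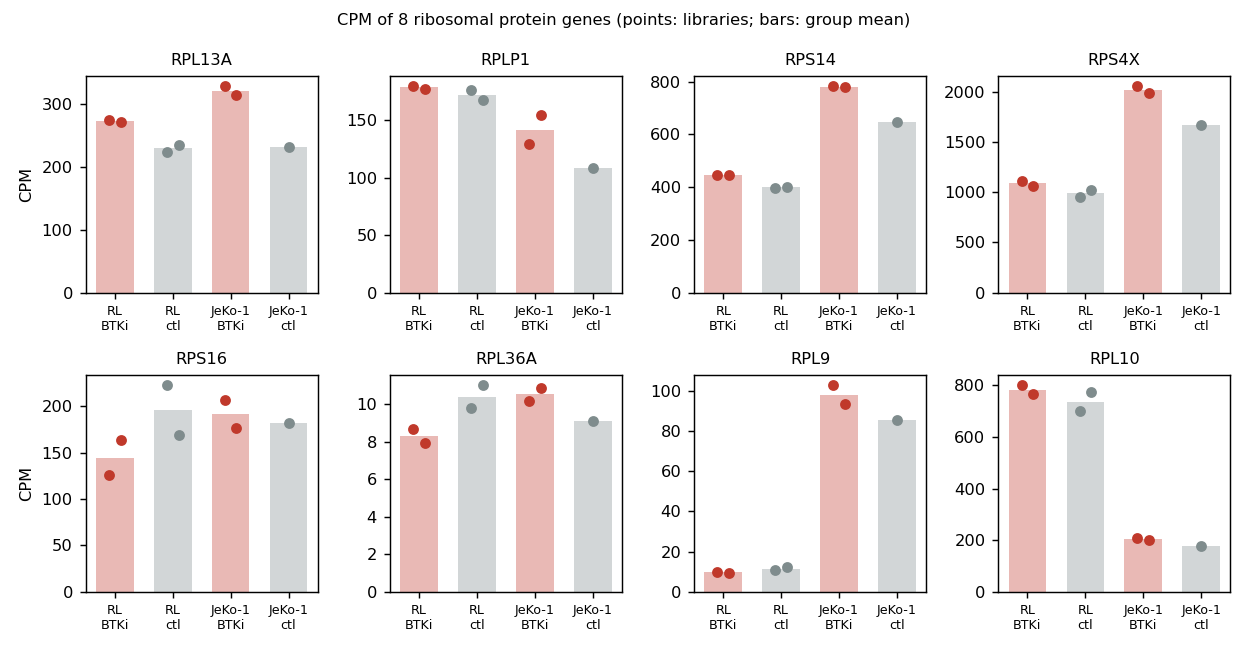
CPM of 8 ribosomal protein genes in every library, with bars for group means, red for BTK inhibitor and grey for control. RPL13A is higher in the treated libraries of both lines, RPLP1, RPS14 and RPS4X show their largest steps in JeKo-1, RPS16 scatters between replicates, and RPL9 and RPL10 differ between the lines far more than with treatment.

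The lines were also compared directly, as the effect in RL minus the effect in JeKo-1 in 1 model of all 7 libraries. Of 80 members, 15 had a lower effect in RL and 0 a higher one, against 8.82% and 8.95% of all tested genes; among genes averaging at least 100 CPM, 13 of 65 members had a lower effect, against 29.0% of all such genes. All 80 estimates were negative, with a median of -0.20, against 0.00 over all tested genes. For genes averaging at least 100 CPM the median was -0.20 in the members and -0.13 in all such genes. Without scaling beyond library totals 76 estimates were negative, and the median was -0.11, against 0.09 over all tested genes. Only 3 members, all of the 60S subunit, were then called lower. No member had a higher effect in RL at an unadjusted p under 0.05, by DESeq2 or by limma-voom. RPL17, at the tunnel exit, had the smallest p-value, with a log2 difference of -0.39 (SE 0.079, adjusted p = 0.0015). It lay at 136 and 133 CPM in treated RL, against 143 and 149 CPM in RL controls, and at 101 and 99.4 CPM in treated JeKo-1, against 82.9 CPM in its control. Treated libraries were thus below the controls in RL and above the control in JeKo-1. RPL14 had a difference of -0.35 (adjusted p = 0.0047) and RPLP1 one of -0.34 (adjusted p = 0.0246). The single JeKo-1 control enters all of these values, and its own departures cannot be told apart from the line difference.

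**Figure D4:**
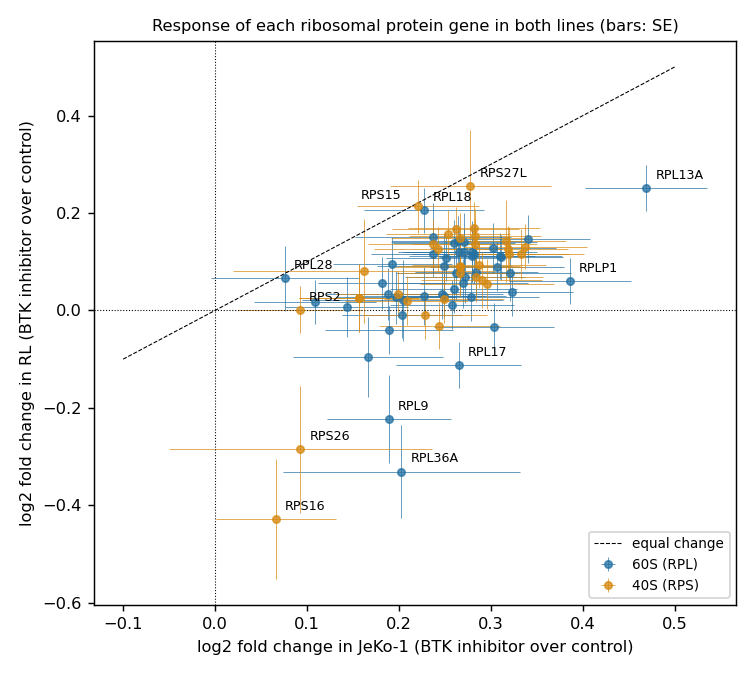
Log2 fold change in RL (vertical) against JeKo-1 (horizontal) for the 80 tested ribosomal protein genes, with SE bars; blue is 60S, orange is 40S, and the dashed line marks equal change. All points lie right of 0 and at or below the dashed line, RPL13A is farthest right at 0.47, and RPS16 is lowest at -0.43.

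Members that changed more in JeKo-1 tended to have higher estimates in RL. Over the 80 genes Pearson's r was 0.56 and Spearman's rho 0.50. The lines share no library, but all genes of a line share its libraries, so this is a description across genes. RPS15 and RPL18 changed by nearly the same amount in both lines, at 0.21 in RL for each and 0.22 and 0.23 in JeKo-1, and the differences were -0.02 (SE 0.089) and -0.04 (SE 0.083). RPS26, RPL9 and RPL36A had negative estimates in RL (-0.29, -0.22 and -0.33) and positive ones in JeKo-1 (0.09, 0.19 and 0.20). All of these averaged under 100 CPM.

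Before treatment, the lines differed in individual ribosomal proteins by much more than the inhibitor changed them. Untreated RL was higher than untreated JeKo-1 in 14 of 80 members and lower in 50, against 39.1% and 37.2% of all tested genes, and against 30.8% and 55.0% of genes averaging at least 100 CPM (11 and 41 of 65 members). The median log2 difference was -0.36 in the members and 0.05 over all genes. It was -0.29 in the 60S and -0.61 in the 40S subunit. For genes averaging at least 100 CPM it was -0.36 in the members and -0.23 in all such genes. Without scaling beyond library totals the median of all genes moved to 0.21, and 25 members were higher and 40 lower. Differences of at least 2-fold were found in 4 members higher in RL and 17 lower.

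RPL9, of the 60S subunit, lay at 10.6 and 12.1 CPM in untreated RL, against 85.5 CPM in untreated JeKo-1 (log2 difference -2.91, SE 0.081, adjusted p = 8.85e-17). It was over 7 times lower in RL, and treated libraries kept the gap, with 9.90 and 9.49 CPM in treated RL, against 103 and 93.3 CPM in treated JeKo-1. RPL9 has 16 annotated processed pseudogenes, and the lines were deposited separately. Any difference in read handling between the lines cannot be told apart from a line difference, and it would persist in treated libraries. RPL31 (156 and 169 CPM in RL, against 552 CPM in JeKo-1), RPS15A (287 and 314 CPM, against 981 CPM) and RPL34 (138 and 143 CPM, against 371 CPM) were lower as well, with log2 differences of -1.76, -1.71 and -1.40. RPS27 and RPS10 differed by -1.33 and -1.28. In none of these did the libraries of the lines overlap.

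In the other direction, RPL10, which joins the 60S subunit late and is needed for subunit joining, lay at 699 and 774 CPM in untreated RL, against 177 CPM in untreated JeKo-1 (log2 difference 2.05, SE 0.074, adjusted p = 4.47e-15), or 4.15-fold. RPL39 (105 and 119 CPM in RL, against 48.4 CPM in JeKo-1) and RPS15 (231 and 256 CPM, against 117 CPM) differed by 1.21 and 1.05. RPL18, RPL28 and RPL17 differed by 0.97, 0.90 and 0.82. The remaining 16 members were not called. Among them, RPL13A had 225 and 236 CPM in RL, against 231 CPM in JeKo-1 (-0.01, SE 0.060, but 0.15 and called without scaling beyond library totals), and RPL5 had 537 and 588 CPM, against 545 CPM (0.05, SE 0.066).

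**Figure D5:**
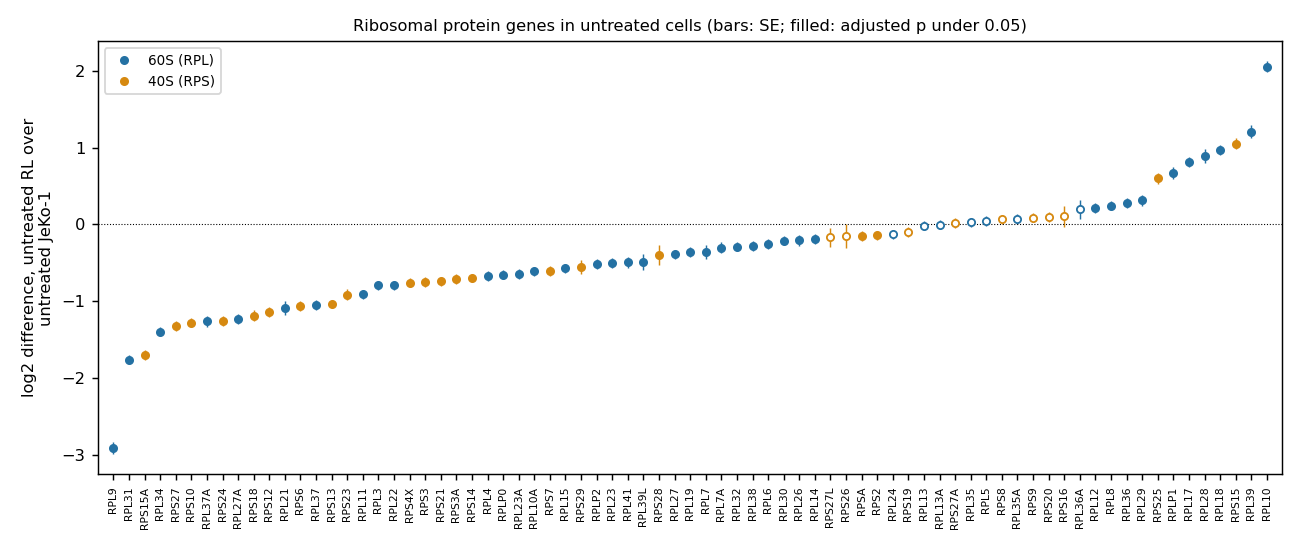
Log2 difference between untreated RL and untreated JeKo-1 for 75 tested ribosomal protein genes in rank order, with SE bars; filled points passed an adjusted p of 0.05, blue is 60S and orange is 40S. The values drawn run from -2.91 for RPL9 to 2.05 for RPL10, with most points below 0.

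Levels within a line were compared per kilobase, with a transcript length from GENCODE that can miss the true ends, for 66 tested members. CPM per kb had a median of 415 in untreated RL and 479.8 in untreated JeKo-1. Among the highest in RL were RPS19 (1571 CPM per kb) and, at 790 to 908 (CPM per kb), RPL19, RPS3, RPS24, RPS27A and RPS20. In JeKo-1 RPS24 (2047), RPS15A (1869), RPS19 (1685) and RPS3 (1513) were among the highest. RPS26 and RPL36A were the lowest in both lines, at 10.5 and 11.8 CPM per kb in RL and 11.7 and 10.3 in JeKo-1. Proteins needed in equal numbers thus had transcript levels that differed over 100 times as counted. Genes with more processed pseudogenes had somewhat lower levels (Pearson r = -0.33 and Spearman rho = -0.17 over 66 genes), and the part of shared reads was not tested.

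The authors' deposited table gave much the same picture for RL. Its log2 ratio of treated to control was above 0 in 69 of the 80 members in RL, with a median of 0.08 (0.02 over all genes), and its FDR was under 0.05 for RPL13A, which was higher, and RPS16, which was lower. For JeKo-1 the authors' deposited table, where the heading of the ratio column names an ALK inhibitor, had ratios above 0 in 75 members, with a median of 0.14 (0.01 over all genes), smaller than the 0.26 found here from the counts. The authors' ratios were not lower in RL than in JeKo-1 for every member, unlike the differences found here from the counts. RPS4X (0.15 in RL, against 0 in JeKo-1), RPS14 (0.17, against 0.09) and RPL11 (0.03, against -0.007) were higher in RL. Others, such as RPL13A (0.26, against 0.37), were lower. No member is in the authors' deposited table of folds of at least 1.5.

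Ribosomal genes outside the naming rule and other genes of the same mRNA class were set beside the members. Over all tested genes, 13.4% rose and 14.9% fell in JeKo-1, and 15.1% rose and 15.3% fell in RL. Of 7 ribosomal genes outside the rule, 4 rose in JeKo-1 (GNB2L1, FAU and RPL36AL among them), and in RL 0 rose and 2 fell (RPL22L1 fell by 0.49 and RPL7L1 fell by 0.27 on the log2 scale; 1 rose at an unadjusted p under 0.05, none by DESeq2 or limma-voom). GNB2L1, the 40S scaffold RACK1, lay at 1495 and 1503 CPM in treated JeKo-1, against 1237 CPM in the control. Of 18 further genes with TOP mRNAs or close ties to them, such as elongation factors, 14 rose and 1 fell in JeKo-1 (median 0.23), while 3 rose and 3 fell in RL (median -0.01). EEF1A1, the elongation factor that delivers aminoacyl-tRNA, lay at 2134 and 1996 CPM in treated JeKo-1, against 1649.7 CPM. Of 19 initiation factors and regulators without that mRNA class, 2 rose and 0 fell in JeKo-1 (1 fell at an unadjusted p under 0.05, none by DESeq2 or limma-voom), with a median of -0.02. Without scaling beyond library totals that split turned, to 1 higher and 4 lower in JeKo-1, with a median of -0.08. In RL 16 of them fell, with a median of -0.31. EIF5A, an elongation and termination factor, lay at 118 and 119.6 CPM in treated RL, against 165 and 163 CPM in the controls.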

How the data were processed

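TruSeq libraries were made from total RNA, per the labels' protocols. The tools named, per the submitters' processing notes, are Partek 6.6, BWA and CASAVA 1.8 on hg19 (GRCh37), without roles. The deposited tables hold, per the file headers, raw read counts of 34917 RefSeq transcripts, log2 values of quantile-normalized reads with log2 ratios, a p-value and FDR that the authors computed for RL, and a signed fold score; the counts alone were tested here. Counts were not summed over transcripts, which repeat reads. Differences were tested in R 4.3.3 with edgeR 4.0.16 (TMM, filterByExpr and the quasi-likelihood functions glmQLFit and glmQLFTest), adjusting p-values over all transcripts by Benjamini-Hochberg: RL alone (25099 transcripts, 2 residual degrees of freedom), JeKo-1 alone (23564, 1), and all 7 libraries with 4 groups (26362, 3) for the difference of effects and the untreated lines. With 1 JeKo-1 control, that library is assumed to vary like the others. CPM use the 7-library TMM factors over all transcripts, so they are shares of transcript counts, not of reads.

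DESeq2 1.42.0, limma 3.58.1 (voom), other scalings, no filter, 1 transcript per gene, a replicate block in RL and leaving out each library were alternatives. The tests were checked on simulated counts. Replicates were distinct libraries: chi-square per degree of freedom over all genes was 4.55 (treated RL), 3.41 (RL controls) and 3.78 (treated JeKo-1), and over the members 13.4, 15.4 and 19.9. The rule for named members took, per comparison, the 8 called in each direction with the smallest adjusted p or largest line difference, up to 10 with a difference of effects, the highest levels, and the stalk, 5S, paralog and other listed genes; RPL6, RPL27A and the members not called in JeKo-1 complete counts. Members, lists and tests were chosen with earlier results of these data known. The name TruSeq alone does not tell whether the libraries kept the strand. Pseudogene and promoter annotation came from GENCODE and RefSeq by symbol. A few members are counted in the totals but not reported by name here.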

Additional observations from a re-analysis of the deposited data

Results flagged for a closer look

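The effect of the inhibitor differed between the lines, by a test of the difference itself (edgeR quasi-likelihood test, RL minus JeKo-1, Benjamini-Hochberg adjustment), for 15 members, all lower in RL. A lower effect was called for 8.82% of all tested genes. Among genes averaging at least 100 CPM it was called for 13 of 65 members, against 29.0% of all such genes, so the members stood below that share. Without scaling beyond library totals 3 members were called. In the 60S subunit the log2 differences were -0.39 for RPL17, -0.35 for RPL14, -0.30 for RPL35, -0.43 for RPL9, -0.55 for RPL36A, -0.34 for RPLP1, -0.27 for RPL11, -0.23 for RPL27, -0.26 for RPL6, -0.23 for RPL13A and -0.24 for RPL27A. In the 40S subunit they included -0.29 for RPS21, -0.26 for RPS24 and -0.51 for RPS16. RPL17, RPL14, RPL9, RPL36A, RPL27A, RPS21 and RPS16 had estimates below 0 in RL and above 0 in JeKo-1, and the others had positive estimates in both lines.

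The number called depended on single libraries: 28 members without the first treated RL library, 9 without the second, 16 without the first RL control, 6 without the second, 6 without the first treated JeKo-1 library and 22 without the second. RPL17, RPL14 and RPS21 were called in all 6 of these fits, with adjusted p up to 0.00925, 0.0304 and 0.0386. RPL35 missed the threshold without the second RL control (adjusted p = 0.0519) and RPLP1 without the second treated JeKo-1 library (adjusted p = 0.103). RPS16, whose RL replicates scatter, ranged from -0.72 to -0.30.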

How the results depend on the processing

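In JeKo-1 the count of members called stayed within 1.5 times of 68 in every alternative run, at 52 to 70, and at 48 and 60 without the first and second treated library; 44 of the 68 were called in both. The JeKo-1 median of 0.26 was 0.19 without scaling beyond library totals, where the median of all genes was -0.07, and ranged from 0.26 to 0.31 with a treated library left out. No value could be had without the JeKo-1 control. In RL, 10 members called became 19 without scaling, 5 with DESeq2, 17 with limma-voom and 18 without a filter, with a range of 6 to 19 when a library was left out; the median ranged from 0.04 to 0.11 with a library left out. The 15 members called for the difference became 3 without scaling, 25 with DESeq2, 23 with limma-voom and 33 without a filter, with a range of 6 to 28 when a library was left out. The cause was not tested. Between untreated lines the count stayed at 61 to 65, against 64. Without scaling, the members with positive estimates there numbered 31, against 24. RPL13, RPL13A, RPS2, RPSA, RPS19 and RPS26 were among those that changed sign, to 0.14, 0.15, 0.019, 0.0089, 0.059 and 0.0081. With the replicate number as a block, 8 members were called in RL against 10. Same-numbered RL libraries had a correlation of deviations of -0.03 over 12588 genes, so no shared deviation was seen. Whether they share a culture or batch is not given in the labels and is not settled by this value. JeKo-1 shares fewer than 2 numbers. Over the alternatives of single members, 2381 values kept their call and direction, 130 lost the call, 82 gained one and 4 reversed.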

Other observations

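Over all tested genes, 13.4% rose and 14.9% fell in JeKo-1, and 15.1% rose and 15.3% fell in RL. Mitochondrial ribosomal proteins, which build the separate ribosome of mitochondria, were counted in the same way. Of 76, 13 rose and 2 fell in JeKo-1 (median log2 fold change 0.06), and 0 rose and 27 fell in RL (median -0.12; 3 rose at an unadjusted p under 0.05, none by DESeq2 or limma-voom). Without scaling beyond library totals the JeKo-1 split was 4 higher and 6 lower. Of 7 dedicated chaperones of cytosolic ribosomal proteins, 4 fell and 0 rose in RL (GRWD1, LTV1, PDCD2L and BCCIP), and none passed the test in JeKo-1 (1 rose at an unadjusted p under 0.05, none by DESeq2 or limma-voom).

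Among 7 genes of growth control, MYC lay at 3.29 and 3.75 CPM in treated RL, against 22.4 and 19.5 CPM in the controls (log2 fold change -2.55, SE 0.11), and at 264 and 275 CPM in treated JeKo-1, against 284 CPM in the control (-0.08, SE 0.065). LARP1, which binds TOP mRNAs, fell by 0.48 in RL and by 0.24 in JeKo-1 on the log2 scale. MDM2, the ubiquitin ligase that free RPL5 and RPL11 bind, rose by 0.60 in JeKo-1 and had a log2 fold change of 0.05 in RL, where it was not called.

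Markers of other cell types were low except in 1 list. The 6 B cell markers summed to 2719.9 and 2690.0 CPM in treated RL, 2316 and 2388 CPM in RL controls, 965 and 986 CPM in treated JeKo-1 and 958 CPM in its control. The JeKo-1 sum hides opposite changes of single markers beside the members' rise: 4 of the 6 fell (among them MS4A1, CD22 and CD79A, with log2 fold changes of -1.75, -1.19 and -0.26) and CD79B rose by 0.89, with a median of -0.34. Over all tested genes, 13.4% rose and 14.9% fell in JeKo-1. In RL, CD79B and CD79A rose by 1.03 and 0.32, and PAX5 fell by 0.44 on the log2 scale. The T and NK markers summed to 0.537 to 1.23 CPM and the myeloid markers to 0.764 to 2.89 CPM over the 7 libraries. The epithelial and stromal markers summed to 84.7 to 89.4 CPM in RL, mostly EPCAM, and to 0.311 to 1.83 CPM in JeKo-1. Their part in the results was not tested.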
